A study of Homo sapiens with 16 samples.

Results

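The genes described here are those of cholesterol synthesis and of its control by the sterol regulatory element-binding proteins (SREBPs), in Ewing sarcoma cells during the knockdown of EWS-FLI1. The list named 8 genes: INSIG1, HMGCS1, SQLE, LSS, FDPS, FDFT1, SREBF2 and EBP. Members were all probe sets that the platform annotates to exactly 1 gene symbol, that symbol being on the list. This rule gave 17 probe sets for 7 of the 8 genes, out of 19070 such probe sets for 11963 genes on the array. FDFT1 had no probe set under the rule and was not analysed here. A filter on dim signals, with log2 4 to be reached by 2 or more of the 16 arrays, kept 16 of the 17 probe sets, and the one left out was 211018_at of LSS, whose highest value was 2.89.

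All 16 samples were A673 cells, an established Ewing sarcoma line, of 1 clone named Asp14 that carries a doxycycline-inducible construct for the knockdown of EWS-FLI1, the fusion oncoprotein of this tumour. Total RNA was hybridised to Affymetrix arrays: 4 from 0 h, when doxycycline was added at 1 µg/ml, then 3 from 18 h, 3 from 36 h, 2 from 53 h, 2 from 72 h and 2 from 96 h. Zeocin and Blasticidin, which keep the hairpin and repressor vectors in the cells, were in the medium of every group, and the sterol content of the medium is not given in the labels. No array came from cells of the parent line, from cells with another hairpin or from cells kept for the same hours without doxycycline, so the knockdown, doxycycline itself and time in culture cannot be told apart.

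Cells make cholesterol from acetyl-CoA through mevalonate, farnesyl diphosphate, squalene and lanosterol. The pathway is held to demand by SREBP2, the product of SREBF2, a transcription factor made as an endoplasmic reticulum membrane protein. When membrane sterol is low, SCAP escorts it to the Golgi, where proteases release its active part, which raises transcription of nearly every enzyme of the pathway. When sterol is plentiful, INSIG1 holds SCAP and SREBP in the endoplasmic reticulum, and INSIG1 is itself a target gene of SREBP.

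The promoter windows of the members were searched for short elements through which SREBP and its partners are known to act. RefSeq windows on build GRCh38.p14, each 250 bases before to 50 bases after a transcription start, were at hand for 6 of the 7 measured members, with 2 windows for HMGCS1, and positions are counted from the start. The stretches below run 5′ to 3′ on the gene's own strand, with 10 bases on either side of the outermost match upstream of the start. Capitals mark CCAAT boxes, the element of NF-Y (CCAAT, or ATTGG where it lies on the other strand), the sterol regulatory element searched as TCACNCCA, and the E-box CACGTG.
INSIG1 promoter, chr7:155297698-155297838, plus strand, bases -180 to -40: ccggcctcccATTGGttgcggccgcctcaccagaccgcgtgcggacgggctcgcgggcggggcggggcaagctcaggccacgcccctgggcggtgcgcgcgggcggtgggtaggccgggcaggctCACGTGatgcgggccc
SREBF2 promoter, chr22:41832962-41833013, plus strand, bases -143 to -92: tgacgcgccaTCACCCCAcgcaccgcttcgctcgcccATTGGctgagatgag
HMGCS1 promoter, second window, chr5:43313498-43313577, minus strand, bases -165 to -86: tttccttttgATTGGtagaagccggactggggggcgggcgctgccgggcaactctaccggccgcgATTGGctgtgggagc
FDPS promoter, chr1:155308680-155308829, plus strand, bases -186 to -37: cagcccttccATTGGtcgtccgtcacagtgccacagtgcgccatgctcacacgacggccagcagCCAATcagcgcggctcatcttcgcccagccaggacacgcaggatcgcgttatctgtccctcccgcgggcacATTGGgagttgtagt
LSS promoter, chr21:46228910-46228934, minus strand, bases -160 to -136: cggcgctctgATTGGttgcgtgggc
EBP promoter, chrX:48521607-48521792, plus strand, bases -201 to -16: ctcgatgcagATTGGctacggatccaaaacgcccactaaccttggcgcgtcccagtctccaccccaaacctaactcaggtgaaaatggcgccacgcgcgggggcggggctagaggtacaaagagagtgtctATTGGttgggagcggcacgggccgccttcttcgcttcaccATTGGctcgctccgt

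A CCAAT box lay in at least 1 window of each of the 6 members. The first HMGCS1 window, which is not shown, held 0. Counted per window, 34.6% of all 35116 RefSeq windows of this length held the box. FDPS and EBP held 3 each. The sterol regulatory element matched in SREBF2 alone, at -133 to -126, against 3.95% of all windows. An E-box lay in INSIG1 at -55 to -50 and in LSS at 41 to 46, past the start, against 7.26% of all windows. The Sp1 box GGGCGG lay in all 6 members, against 45.0% of all windows, and its matches overlapped each other in INSIG1 and SREBF2. For the fusion's own DNA-binding family, the ETS letters CCGGAAG matched in FDPS alone, at -225 to -219, against 10.3% of all windows, and GGAAGGAA, a tandem repeat bound by EWS-FLI1, matched in 0 members, against 3.67% of all windows. Both strands were searched, no other matches overlapped, and a missing match says only that these letters are not in the window.

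Values are log2 expression values normalised by the submitters with GCRMA, and a difference of 1 is a 2-fold difference in signal. FLI1, the 3′ partner in the fusion, averaged 6.87, 6.41, 6.80, 6.99 and 6.72 at 18, 36, 53, 72 and 96 h, against 10.1 at 0 h, and EWSR1, the 5′ partner, changed by -0.21 (adjusted p = 0.0887, not called), -0.59, -0.74, -0.84 and -0.51 at these times. Of 6 tested Ewing sarcoma markers, 5 were lower at 18, 36, 53 and 72 h and 6 at 96 h. The shares of all genes lower at these 5 times were 14.7%, 32.1%, 34.5%, 39.2% and 35.7%. PRKCB, named after its values were seen, averaged 5.02 at 96 h, against 10.2 at 0 h, and the surface marker CD99, the least changed, averaged 13.2 at 96 h, against 13.6 at 0 h (adjusted p = 0.0138). Markers of blood, endothelial, epithelial and of liver and steroid-making cells had no gene that passed the filter, and their summed log2 levels ranged from 8.52 to 8.74 (4 blood genes), 9.54 to 10.3 (4 endothelial genes), 9.20 to 9.54 (4 epithelial genes) and 10.9 to 11.4 (5 liver and steroid genes) over all times. The upper quartile of the log2 values ran from 8.08 to 8.18 over arrays, and ACTB probe sets at the 3′ end exceeded those at the 5′ end, which reflects RNA integrity and labelling, by 1.47 to 2.45.

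Both replicate structure and single arrays bear on these genes. Replicates 2 and 3 differed from each other by an SD over genes of 0.176 at 0 h, 0.164 at 18 h and 0.186 at 36 h, less than any other pair of arrays of one time, and may share an RNA source. The members were therefore also fitted with the 2 averaged, and only the calls of HMGCS1 and INSIG1 at 18 h were lost. Genes outside the members are not given singly with the 2 averaged. Among all genes tested, averaging lowered the calls at 18 h from 2150 to 1269. Replicate 1 at 36 h and replicate 4 at 0 h stood apart in sterol genes. On replicate 1 at 36 h, all 18 genes considered (the 7 members and 11 other cholesterol synthesis genes that passed the filter) lay below the mean of the other 36 h arrays, with a median difference of -0.94, while 48.0% of all genes lay below with a median of 0.01. On replicate 4 at 0 h, all 18 lay below the mean of the other 0 h arrays with a median of -0.29, against 54.3% of all genes with a median of -0.02. The ACTB difference was 2.21 on that 36 h array, within the 2.09 to 2.45 of its group, and 1.47 on that 0 h array, the lowest of all 16, against 1.90 to 2.06 on the other 0 h arrays. The part of RNA quality or culture in these differences was not tested.

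**Figure D1:**
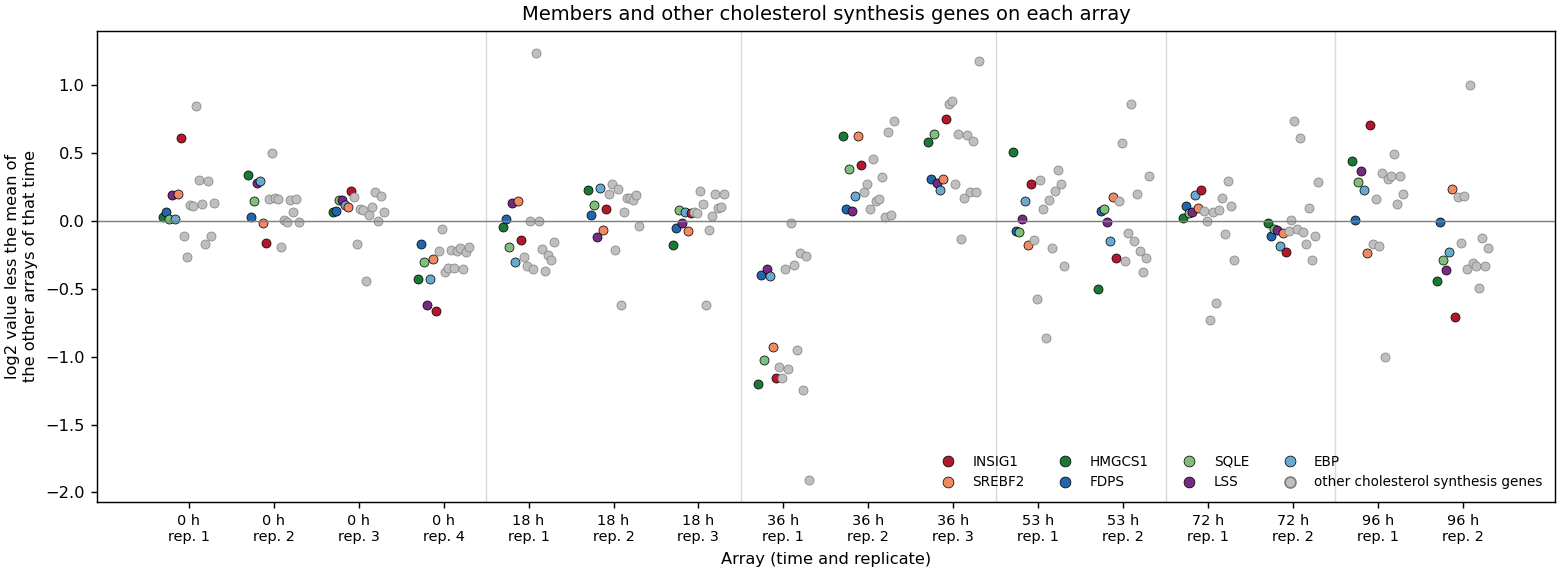
Each point is 1 gene on 1 array: its log2 value less the mean of the other arrays of the same time (y axis), for the 7 members (coloured) and 11 other cholesterol synthesis genes (grey), with arrays in order of hours on the x axis. All 18 points lie below 0 on 36 h replicate 1 and on 0 h replicate 4.

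The members did not move as one group after doxycycline. INSIG1, HMGCS1 and LSS were higher at 18 h, INSIG1 remained higher to 96 h apart from a gap at 36 h, and LSS was higher up to 53 h. FDPS and EBP were lower from 36 h on, with the lowest level at 72 h and a rise by 96 h. SQLE and SREBF2 passed the test at no time. Each gene was tested on its brightest probe set with limma over 7304 genes, and p-values were adjusted by Benjamini-Hochberg over those genes in each comparison, 0.05 being the threshold.

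Against 0 h, 3 of the 7 members were higher and 0 lower at 18 h, when 14.8% of all genes were higher and 14.7% lower. At 36 h, 1 was higher and 2 lower, against 33.2% and 32.1% of all genes. At 53 h, 3 were higher and 2 lower, against 31.8% and 34.5% of all genes. At 72 h, 1 was higher and 2 lower, against 29.3% and 39.2% of all genes. At 96 h, 1 was higher and 2 lower, against 25.1% and 35.7% of all genes. With 7 genes on a list chosen with earlier results of these data known, no share is a result about the members as a group. The count at 18 h fell with replicates 2 and 3 averaged, where HMGCS1 (adjusted p = 0.084) and INSIG1 (0.055) were not called. The median change of all genes was 0.02, 0.02, -0.01, -0.11 and -0.10 at the 5 times, while that of the members was 0.32, 0.09, 0.28, 0.10 and 0.07 at the 5 times.

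Between neighbouring times, 0 members were higher and 2 lower at 36 h against 18 h, when 21.9% of all genes were higher and 22.9% lower. No member passed at 53 h against 36 h, when 5.37% of genes were higher and 7.23% lower, or at 72 h against 53 h, when 5.61% were higher and 11.0% lower. At 96 h against 72 h, 2 members were higher and 0 lower, against 17.1% and 10.1% of all genes. A moderated F test over the 6 times passed for EBP (adjusted p = 3.85e-07), FDPS (3.86e-06), LSS (0.000544) and INSIG1 (0.00527), and did not pass for HMGCS1 (0.0565), SQLE (0.296) or SREBF2 (0.558). INSIG1 did not pass it in the replicate block fit of 0, 18 and 36 h (0.0691). Without replicate 1 of 36 h, HMGCS1 (0.00165) and SREBF2 (0.036) passed as well, and 6 members were called at 36 h against 0 h, with HMGCS1, SREBF2 and INSIG1 added as higher.

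**Figure D2:**
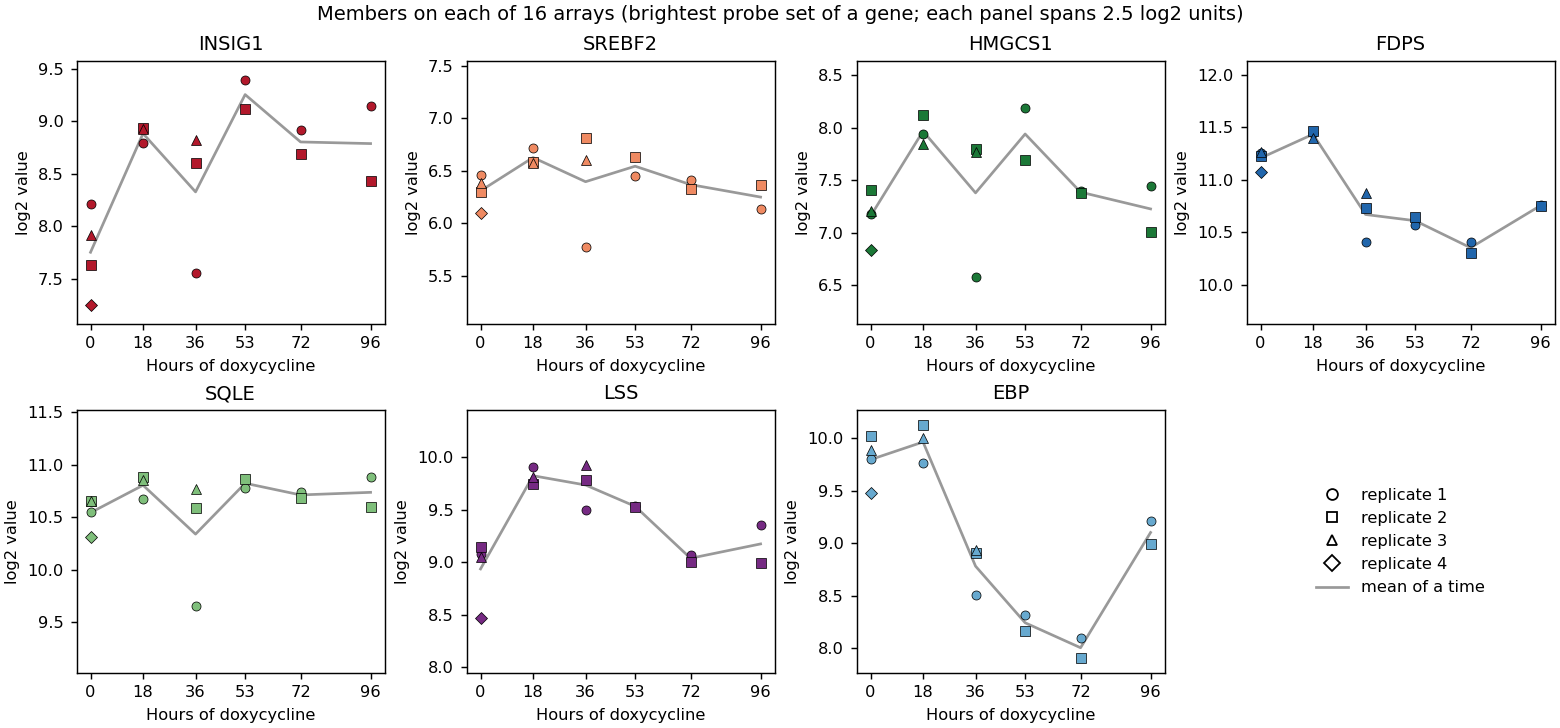
log2 value of each member's brightest probe set on each of the 16 arrays (y axis, same span in every panel) against hours of doxycycline (x axis), with symbols for replicate numbers and a line through the means. INSIG1 at 53 h and EBP at 72 h sit furthest from their 0 h arrays, and 36 h replicate 1 is the lowest 36 h array in every panel.

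INSIG1, the endoplasmic reticulum retention factor of the SREBP pathway, rose more than any other member. Its brightest probe set, 201626_at, read 8.21, 7.63, 7.91 and 7.25 at 0 h, 8.79, 8.94 and 8.92 at 18 h, and 7.56, 8.60 and 8.82 at 36 h. It then read 9.39 and 9.12 at 53 h, 8.92 and 8.69 at 72 h, and 9.14 and 8.43 at 96 h. Every array at 18, 53, 72 and 96 h lay above all 4 of the 0 h arrays, and at 36 h replicate 1 alone fell inside the 0 h range.

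The log2 change of INSIG1 against 0 h was 1.13 ± 0.28 (SE) at 18 h, a 2.19-fold rise (adjusted p = 0.00952). It was 1.50 ± 0.32 at 53 h, a 2.83-fold rise (adjusted p = 0.000984), 1.05 ± 0.32 at 72 h (0.0101) and 1.03 ± 0.32 at 96 h (0.0129). The 36 h change of 0.57 ± 0.28 did not pass (adjusted p = 0.0896), and without replicate 1 of that time it was 0.96 (adjusted p = 0.00308). The rise at 18 h missed the threshold in the replicate block fit of 0, 18 and 36 h, where the number was a term (0.96, adjusted p = 0.0537) and with replicates 2 and 3 averaged (1.11, adjusted p = 0.055). The call at 72 h was lost without replicate 1 of 72 h (0.94, adjusted p = 0.08), and that at 96 h without replicate 1 of 96 h (0.68, adjusted p = 0.177).

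All 3 INSIG1 probe sets gave the same direction at every time. 201627_s_at changed by 1.06, 0.34, 1.25, 0.89 and 0.95 over the 5 times and passed at all but 36 h, in a fit of all 10947 probe sets. 201625_s_at changed by 0.88, 0.27, 0.65, 0.60 and 1.22 and passed at 18, 53 and 96 h. 201626_at and 201627_s_at peaked at 53 h and 201625_s_at at 96 h.

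SREBF2, which encodes SREBP2, differed little between times. Probe set 201247_at read 6.46, 6.30, 6.39 and 6.10 at 0 h, 6.72, 6.58 and 6.58 at 18 h, and 5.78, 6.81 and 6.60 at 36 h. It read 6.46 and 6.63 at 53 h, 6.42 and 6.32 at 72 h, and 6.13 and 6.37 at 96 h. The 18 h arrays lay just above the 0 h arrays and all later groups overlapped them.

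The change of SREBF2 was 0.32 ± 0.19 (SE) at 18 h (adjusted p = 0.242), 0.09 at 36 h, 0.23 at 53 h, then 0.06 at 72 h and -0.06 at 96 h; none passed. Without replicate 1 of 36 h, the change at 36 h was 0.40 with adjusted p = 0.0177, so the absence of a call at that time turned on that array. The second probe set, 201248_s_at, passed in neither direction against 0 h, and was lower by a log2 change of -0.45 at 72 h and -0.53 at 96 h against 18 h (adjusted p = 0.0301 and 0.0161).

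HMGCS1 encodes the cytosolic HMG-CoA synthase, which makes the substrate of HMG-CoA reductase at the entry to the mevalonate pathway. Its brightest probe set, 221750_at, read 7.18, 7.41, 7.21 and 6.84 at 0 h, 7.94, 8.12 and 7.85 at 18 h, and 6.58, 7.80 and 7.77 at 36 h. It read 8.19 and 7.69 at 53 h, 7.40 and 7.38 at 72 h, and 7.45 and 7.01 at 96 h. Arrays of 18 and 53 h lay above all 0 h arrays, those of 36 h fell on both sides, and those of 72 and 96 h reached into the 0 h range.

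HMGCS1 was higher at 18 h by 0.81 ± 0.26 (SE) on the log2 scale, 1.75-fold (adjusted p = 0.0304), and at 53 h by 0.78 ± 0.29, 1.72-fold (adjusted p = 0.0296). The changes of 0.22, 0.23 and 0.07 at 36, 72 and 96 h did not pass, and without replicate 1 of 36 h the value at 36 h was 0.62 (adjusted p = 0.00818). Evidence at 18 h was thin: the call was lost with the replicate block (0.70, adjusted p = 0.0758), with replicates 2 and 3 averaged (0.85, adjusted p = 0.084), and without any one of the 18 h arrays or of replicates 3 and 4 at 0 h (adjusted p between 0.0526 and 0.0942). At 53 h it was lost without replicate 4 of 0 h (0.67, adjusted p = 0.0687) and without replicate 1 of 53 h (0.53, adjusted p = 0.248).

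The dimmer HMGCS1 probe set, 205822_s_at, read 5.31, 6.23 and 6.21 at 18 h and 5.42 and 6.27 at 53 h, against 4.65, 4.99, 5.27 and 4.19 at 0 h. It was higher at 18 h by 1.14 ± 0.36 (SE; adjusted p = 0.0308) and at 53 h by 1.07 ± 0.41 (adjusted p = 0.0339). It was also lower at 36 h than at 18 h by a log2 change of -1.41 (adjusted p = 0.01), a step at which 221750_at changed by -0.59 without passing. On replicate 1 of 36 h this probe set read 3.65, below the filter level.

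FDPS makes farnesyl diphosphate, the branch point between sterols and the prenyl groups put on proteins, and is the enzyme that nitrogen-containing bisphosphonates block. Its only probe set, 201275_at, read 11.26, 11.23, 11.26 and 11.08 at 0 h, 11.44, 11.46 and 11.39 at 18 h, and 10.40, 10.73 and 10.87 at 36 h. It read 10.57 and 10.64 at 53 h, 10.41 and 10.30 at 72 h, and 10.76 and 10.75 at 96 h. No array from 36 h on overlapped the 0 h arrays, and the 18 h arrays lay just above them.

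The log2 change of FDPS was -0.54 ± 0.09 (SE) at 36 h, 1.45-fold lower (adjusted p = 0.000177), -0.60 ± 0.11 at 53 h (0.000209), -0.85 ± 0.11 at 72 h, 1.81-fold lower (7.07e-06), and -0.45 ± 0.11 at 96 h (0.00212). At 18 h it was 0.23 ± 0.09 and did not pass (adjusted p = 0.0817), although it passed without replicate 1 of 36 h (0.0155). FDPS was lower at 36 h than at 18 h by a log2 change of -0.76 ± 0.10 (adjusted p = 4.56e-05) and rose at 96 h against 72 h by 0.40 ± 0.12 (adjusted p = 0.0257). That last step lost its call without any one of the arrays of 72 and 96 h (adjusted p between 0.0604 and 0.148).

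SQLE encodes squalene epoxidase, which adds the oxygen that becomes the hydroxyl group of cholesterol and is a rate-limiting step after squalene. Its brightest probe set, 209218_at, read 10.55, 10.65, 10.65 and 10.31 at 0 h, 10.68, 10.88 and 10.86 at 18 h, and 9.66, 10.59 and 10.77 at 36 h. It read 10.78 and 10.86 at 53 h, 10.74 and 10.68 at 72 h, and 10.88 and 10.59 at 96 h. Replicate 1 of 36 h was lower than every other array of the study, and the others lay between 10.31 and 10.88.

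No comparison of SQLE with 0 h passed on any of its 3 probe sets. 209218_at changed by 0.26, -0.20, 0.28, 0.17 and 0.19 over the 5 times, each with an SE of 0.20 or 0.23. 213577_at gave its largest value at 53 h, 0.82 ± 0.37, and 213562_s_at at 36 h, -0.71 ± 0.31, where replicate 1 read 5.00 and the other arrays read 6.67 and 6.56. Without that array, 209218_at was 0.14 at 36 h (adjusted p = 0.299), which turned its sign, and SQLE passed at 53 h (0.28, adjusted p = 0.039). With all arrays, 213562_s_at was higher at 72 h than at 36 h, by 1.12 (adjusted p = 0.0271), a step measured from the group that holds that array.

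LSS, lanosterol synthase, closes the rings of the sterol nucleus. Its brightest probe set, 202245_at, read 9.08, 9.15, 9.05 and 8.48 at 0 h, 9.91, 9.75 and 9.82 at 18 h, and 9.50, 9.79 and 9.92 at 36 h. It read 9.54 and 9.53 at 53 h, 9.07 and 9.01 at 72 h, and 9.36 and 8.99 at 96 h. All arrays of 18, 36 and 53 h lay above the 0 h arrays, and those of 72 h lay within them.

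The log2 change of LSS was 0.89 ± 0.15 (SE) at 18 h, 1.85-fold (adjusted p = 0.000975), 0.80 ± 0.15 at 36 h (0.00042) and 0.60 ± 0.17 at 53 h (0.00805), and these calls held with every single array left out. It was 0.10 at 72 h and 0.24 at 96 h, neither of which passed. LSS was lower at 72 h than at 18 h by a log2 change of -0.79 ± 0.18 (adjusted p = 0.00212) and than at 36 h by -0.70 ± 0.18 (0.00737). The second tested probe set of LSS, 211019_s_at, had values between 2.92 and 4.22 near the filter level and passed at no time. The mean of all 3 LSS probe sets, 211018_at included, gave 0.28 at 53 h (adjusted p = 0.0713).

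EBP is the sterol isomerase that moves a double bond of the ring system late in the pathway, and it gave the largest change of all members. Probe set 202735_at read 9.81, 10.02, 9.89 and 9.48 at 0 h, 9.76, 10.13 and 10.01 at 18 h, and 8.51, 8.90 and 8.93 at 36 h. It read 8.32 and 8.17 at 53 h, 8.10 and 7.91 at 72 h, and 9.22 and 8.99 at 96 h. The 18 h arrays overlapped those of 0 h, and every later array lay below them.

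EBP changed by -1.01 ± 0.14 (SE) at 36 h, 2.02-fold lower (adjusted p = 3.03e-05), -1.55 ± 0.16 at 53 h (1.87e-06), -1.79 ± 0.16 at 72 h, 3.46-fold lower (3.5e-07), and -0.69 ± 0.16 at 96 h (0.00219). Between 18 and 36 h it changed by -1.18 ± 0.15 (adjusted p = 4.44e-05), and between 72 and 96 h it rose by 1.10 ± 0.19 (adjusted p = 0.000734). The step from 36 to 53 h was -0.54 ± 0.17 (adjusted p = 0.056). All 3 EBP probe sets passed in the same direction at 36, 53, 72 and 96 h against 0 h: 213787_s_at gave -1.86 and 213789_at gave -1.80 at 72 h. Both also rose at 96 h against 72 h, by 1.30 (adjusted p = 6.89e-05) and 0.82 (adjusted p = 0.00402).

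**Figure D3:**
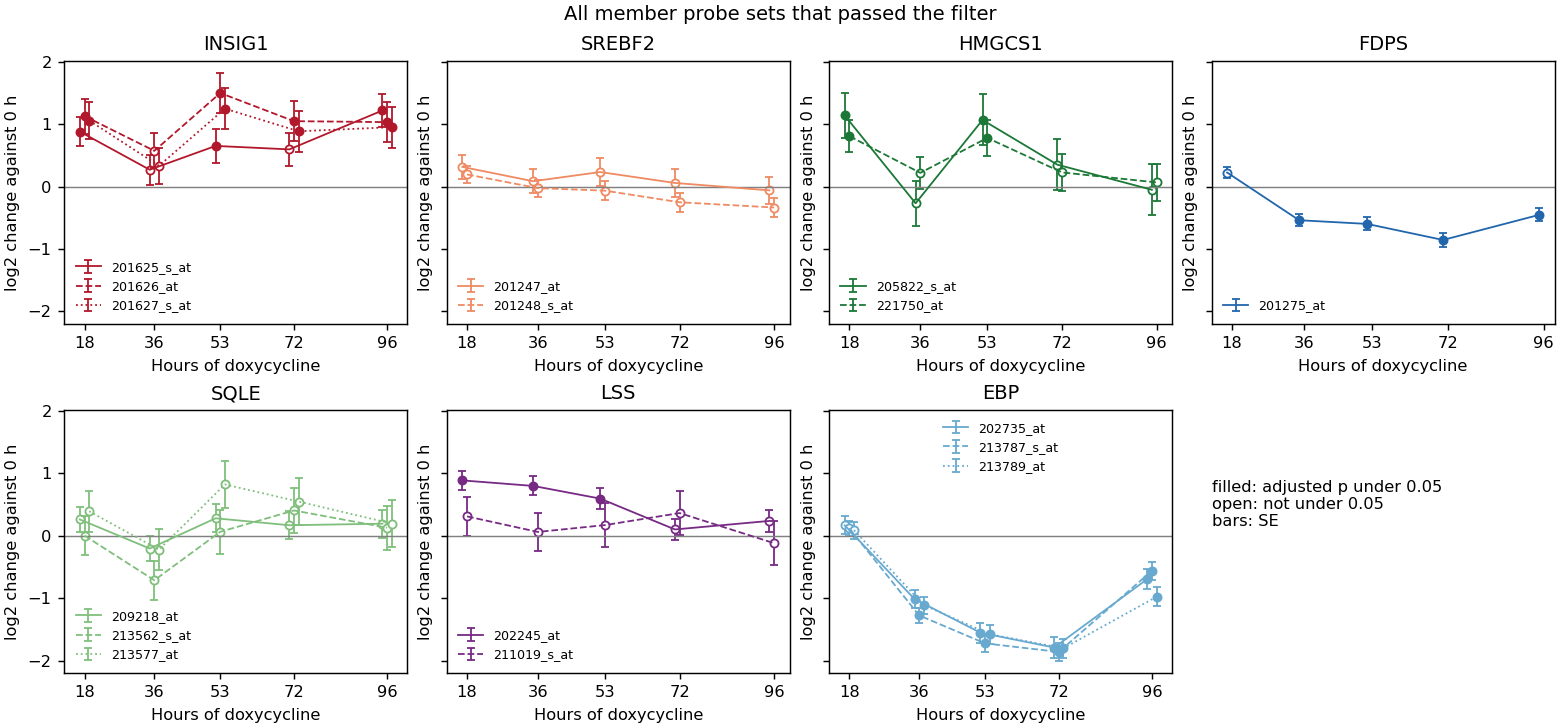
log2 change against 0 h (y axis, bars are SE) at 18, 36, 53, 72 and 96 h (x axis) for each of the 16 member probe sets that passed the filter, filled where adjusted p was under 0.05. The 3 EBP probe sets fall and return together, while the probe sets of SREBF2 and SQLE are open circles at all 5 times.

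Ordered by mean level over the 6 times, the members had different leading groups. INSIG1 ran from 53 h (9.25) through 18, 72, 96 and 36 h to 0 h (7.75), and no pair of neighbours in that order differed with an adjusted p under 0.05. HMGCS1 and SREBF2 were highest at 18 h (7.97 and 6.63), and LSS also led at 18 h (9.83) and was lowest at 0 h (8.94), with no neighbours that differed. SQLE ran from 53 h (10.82) to 36 h (10.34), again with none. FDPS and EBP shared the same order, 18, 0, 96, 36, 53 and 72 h, and in both only the step between 96 and 0 h passed (adjusted p = 0.00212 for FDPS and 0.00219 for EBP). So 2 of 35 neighbouring pairs differed, and 7 did without replicate 1 of 36 h.

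Over the 16 arrays, FDPS and EBP had a Pearson correlation of 0.95. HMGCS1, SQLE, SREBF2 and INSIG1 correlated with each other at 0.57 to 0.78, and replicate 1 of 36 h was low in all 4 of them. LSS correlated with HMGCS1 at 0.70, INSIG1 at 0.57, SREBF2 at 0.55 and SQLE at 0.25. EBP and INSIG1 had a correlation of -0.31. These points share arrays, times and normalisation, so the values are descriptions. Among all 7304 genes, the 3 most like EBP over the 16 arrays were NEIL3 (0.99), NSD2 (0.98) and TIMELESS (0.98), and those most like FDPS were ACAT2 (0.99), EBP and NDUFS1 (0.95). The nearest to SQLE were MSMO1 (0.92), ELOVL5 (0.81) and DHCR7, of which MSMO1 and DHCR7 are cholesterol synthesis enzymes. Those nearest to HMGCS1 were STK17B (0.83), TARS1 (0.82) and MSMO1 (0.81), and those nearest to SREBF2 were MTHFD2 (0.84), MID1IP1 (0.83) and AARS1. LSS was most like NGLY1 (0.96), HSD17B4 (0.96) and SMARCAL1 (0.95), and INSIG1 most like TRAK2 (0.83), MAP3K9 (0.83) and MAP1B (0.82).

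Among the other enzymes of cholesterol synthesis, 11 of 15 listed genes were tested, and several fell with FDPS and EBP while TM7SF2 rose early. At 18 h, 1 was higher and 0 lower, with a median change of 0.20 against 0.02 over all genes. At 36 h, 1 was higher and 5 lower (median -0.49), at 53 h 0 and 5 (-0.44), at 72 h 0 and 5 (-0.54), and at 96 h 0 and 3 (-0.19). Of all genes, 14.7%, 32.1%, 34.5%, 39.2% and 35.7% were lower at the 5 times. The shares higher were 14.8%, 33.2%, 31.8%, 29.3% and 25.1%. The median change of all genes was 0.02, -0.01, -0.11 and -0.10 at 36, 53, 72 and 96 h. With 11 genes tested, these counts are not read as a result about the list. Without replicate 1 of 36 h, the count at 36 h was 1 higher and 2 lower, and without replicate 3 of 36 h it was 1 and 9. The call at 18 h was lost without replicate 1 of 18 h, and without replicate 1 of 36 h there were 3. At 72 h, 3 were lower without replicate 2 or 3 of 0 h or without either 72 h array, and at 96 h, 1 was lower without either 96 h array.

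ACAT2, the cytosolic thiolase that starts the pathway, changed by -1.12 at 36 h (adjusted p = 0.000456), -1.76 at 72 h (2.4e-05) and -0.74 at 96 h (0.0187). PMVK, the second mevalonate kinase step, changed by -1.68 at 72 h (4.47e-06) and -0.56 at 96 h (0.0254). Both calls at 96 h were lost without either 96 h array (adjusted p between 0.0543 and 0.156), and that of PMVK also without replicate 2 or 3 of 0 h (0.0557 and 0.0508). LBR and TM7SF2 both encode sterol C14-reductases, and they went in opposite directions at 36 h. LBR was lower from 36 h on and reached -1.65 ± 0.13 (SE) at 96 h (adjusted p = 2.33e-07). TM7SF2 read 8.47, 8.58 and 8.39 at 36 h, against 7.06, 6.28, 6.09 and 6.26 at 0 h. Its change was 1.39 ± 0.35 at 18 h (adjusted p = 0.00979, lost without replicate 1 of 18 h at 0.0547) and 2.06 ± 0.35 at 36 h (0.000152), and its arrays at 72 h read 5.24 and 5.85 (-0.88, adjusted p = 0.0626). SC5D, a late desaturase, passed at 36 h alone (-0.33, adjusted p = 0.0268), and not without replicate 2 or 3 of 0 h or replicate 1 or 2 of 36 h (adjusted p between 0.0518 and 0.115).

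**Figure D4:**
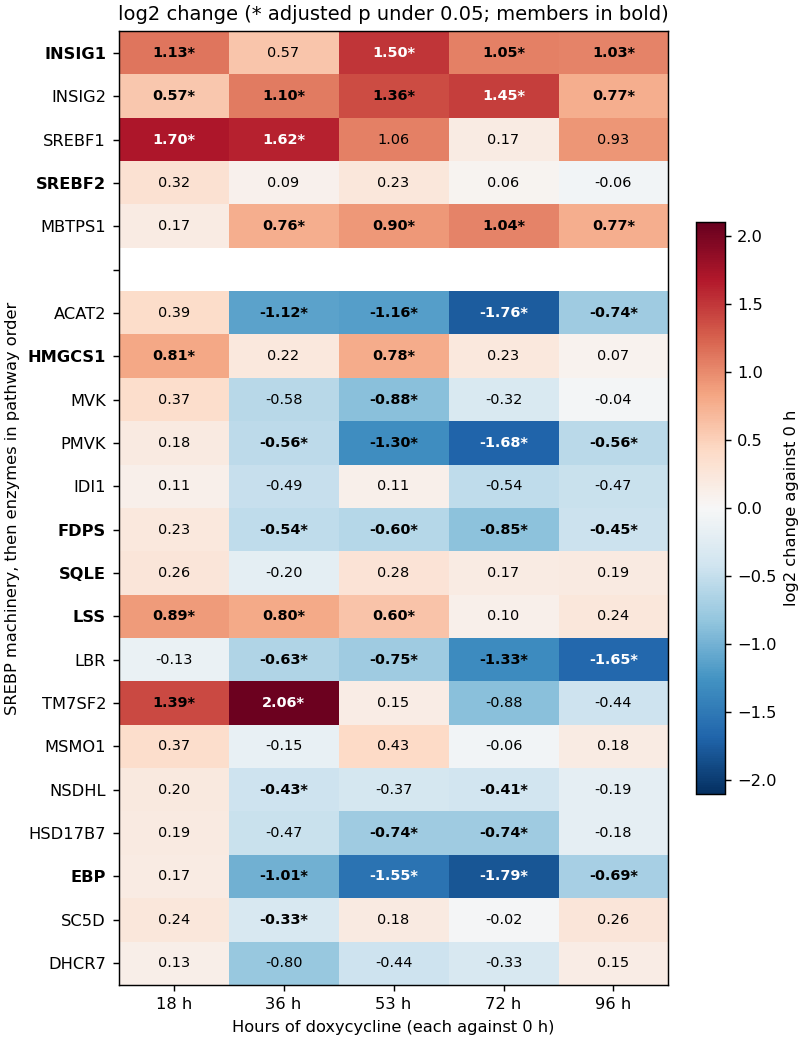
log2 change against 0 h in colour and numbers for the SREBP machinery (upper block; SCAP, which is not drawn, is given in the text) and for the enzymes in pathway order (lower block), with hours of doxycycline on the x axis and stars where adjusted p was under 0.05. INSIG1 and INSIG2 are red at every time, ACAT2, PMVK, FDPS, LBR and EBP are blue from 36 h on, and TM7SF2 is red at 18 and 36 h.

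Of the rest of the SREBP machinery, 4 of 5 listed genes were tested. At the 5 times, 2, 3, 2, 2 and 2 were higher, with 1 lower at 53 h and 1 at 72 h. Among all genes, 14.8%, 33.2%, 31.8%, 29.3% and 25.1% were higher at these times, and 34.5% and 39.2% were lower at 53 and 72 h. SREBF1, which encodes the SREBP1 proteins of fatty acid synthesis, read 8.04, 7.43 and 7.54 at 18 h and 7.40, 7.61 and 7.76 at 36 h, against 7.25, 5.97, 5.90 and 4.77 at 0 h. It was higher by 1.70 ± 0.39 (SE) at 18 h (adjusted p = 0.0062) and 1.62 ± 0.39 at 36 h (0.00252), and did not pass at 53 h (1.06, 0.0515), 72 h or 96 h. Without replicate 1 of 0 h it passed at 53 h (1.48, adjusted p = 0.000856) and 96 h (1.36, 0.00189). Every 18 and 36 h array of SREBF1 lay above its 0 h arrays, whose own spread was wide. For SREBF2 the same held at 18 h and, at 36 h, for all arrays but replicate 1. INSIG2, the second retention factor, was higher at all 5 times, by 0.57 at 18 h (adjusted p = 0.0271) up to 1.45 at 72 h (1.97e-05). Its call at 18 h was lost without replicate 3 of 0 h or replicate 1 or 3 of 18 h (adjusted p between 0.053 and 0.116), which left 1 of the 2 at 18 h. MBTPS1, the first of the proteases that cleave SREBPs, was higher from 36 h on, by 1.04 ± 0.09 at 72 h (adjusted p = 2.98e-07). SCAP was the gene that was lower, with changes of -0.39 at 53 h and -0.51 at 72 h.

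Among 5 tested genes of sterol uptake and transport, 3 were higher and 2 lower at each of 36, 53 and 72 h. The shares of all genes at these times were 33.2%, 31.8% and 29.3% higher and 32.1%, 34.5% and 39.2% lower. NPC2, which hands cholesterol out of lysosomes, was higher at all 5 times and by 2.02 ± 0.12 (SE) at 72 h (adjusted p = 5.78e-09). NPC1, its membrane partner, was higher by 0.87 at 36 h (adjusted p = 0.00303), passed at 72 h by a narrow margin (0.60, adjusted p = 0.045, lost without replicates 2 to 4 of 0 h or any array of 18, 53 or 72 h, left out singly, with adjusted p between 0.0514 and 0.181) and had not passed at 96 h (0.53, 0.0767). It passed at 96 h without replicate 1 of 36 h or replicate 2 of 96 h (adjusted p = 0.00745 and 0.0441), when 4 genes of the list were called at 96 h, against 2. SCARB1, a receptor for high-density lipoprotein, was lower at all 5 times, with a change of -2.51 ± 0.22 at 72 h (adjusted p = 2.6e-07), where its arrays read 3.87 and 3.90, below the filter level. Without replicate 1 of 18 h the call of SCARB1 at that time was lost (-0.52, adjusted p = 0.053), leaving 1 of 2, and without replicate 1 of 36 h there were 4.

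All calls among the 5 tested genes of liver X receptor signalling and sterol efflux were in the higher direction: 1, 3, 3, 4 and 2 at the 5 times. Among all genes, 14.8%, 33.2%, 31.8%, 29.3% and 25.1% were higher at these times. MYLIP, a ubiquitin ligase that removes lipoprotein receptors, was higher at all 5 times, by 0.90 at 18 h (adjusted p = 0.00417) and 2.93 ± 0.22 (SE) at 53 h (8.67e-08). NR1H3, the liver X receptor alpha, was higher from 36 h on, by 1.76 at 53 h (adjusted p = 8.29e-06), although not at 96 h without replicate 2 of 96 h (0.61, adjusted p = 0.0871), when 1 of the 2 calls was left. ABCG1, a sterol exporter, read 6.91, 7.05 and 6.81 at 36 h, against 5.51, 2.89, 2.98 and 2.96 at 0 h. Its 0 h arrays were below the filter level except for replicate 1, so the size of its change at 36 h (3.34, adjusted p = 0.000293) is less certain. Without that replicate it passed at 18 h too (1.91, adjusted p = 0.00655), which made 2 calls at that time.

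The fatty acid targets of SREBP held calls in both directions. Of 8 tested genes, 3 were higher and 0 were lower at 18 h, 2 and 2 at 36 h, 2 and 3 at 53 h, 1 and 3 at 72 h, and 0 and 1 at 96 h. Shares of all genes at these times were 14.8%, 33.2%, 31.8%, 29.3% and 25.1% higher. Those lower were 14.7%, 32.1%, 34.5%, 39.2% and 35.7%. With 8 genes tested, these counts are not read as a result about the list. The 3 at 18 h were 1 without replicate 4 of 0 h or replicate 1 of 18 h and 5 without replicate 1 of 0 h, and the 5 at 53 h were 3 without replicate 2 of 53 h. LPIN1, a phosphatidate phosphatase, was higher by 0.78 at 18 h (adjusted p = 0.0101) and passed up to 72 h, and SCD, the stearoyl-CoA desaturase, was higher by 0.73 at 18 h (0.0206) and passed up to 53 h. LPIN1 lost its call at 72 h without either 72 h array (adjusted p = 0.0539 and 0.127). SCD lost its calls at 18 and 53 h without replicate 4 of 0 h (0.0575 and 0.0656), that at 18 h without replicate 1 of 18 h (0.0921) and that at 53 h without either 53 h array (0.0853 and 0.123). FASN, the fatty acid synthase, changed by -1.11 at 36 h (adjusted p = 2.05e-05), -1.27 at 53 h and -0.44 at 96 h (0.0379), the last lost without replicate 1, 2 or 3 of 0 h or replicate 2 of 96 h (adjusted p between 0.0522 and 0.394). The count at 96 h was 0 without replicate 2 or 3 of 0 h and 2 without replicate 4 of 0 h or replicate 1 of 96 h. ELOVL6, a fatty acid elongase, was higher by 0.67 at 18 h (adjusted p = 0.0488, lost without any one of the 18 h arrays, among others) and lower at 72 h, a change of -1.40 (0.000398). ACACA, the acetyl-CoA carboxylase, did not pass at any time against 0 h with all arrays, with 0.46 at 96 h (adjusted p = 0.0679), whereas the mean of its probe sets was lower at 96 h (-0.59, adjusted p = 0.00146). Without replicate 1 of 0 h or replicate 2 of 96 h, ACACA was higher at 96 h (adjusted p = 0.0262 and 0.0428).

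Downstream of FDPS, the other branches that use prenyl diphosphates had more genes lower than higher at every time, by 1 gene at 18 h. All genes tested likewise had more lower than higher at 53, 72 and 96 h. Among all genes, 14.7%, 32.1%, 34.5%, 39.2% and 35.7% were lower at the 5 times. The shares of all genes that were higher were 14.8%, 33.2%, 31.8%, 29.3% and 25.1%. Of 9 tested genes, 0 were higher and 1 was lower at 18 h, 1 and 4 at 36 h, 1 and 5 at 53 h, 0 and 7 at 72 h, and 0 and 5 at 96 h. Without replicate 2 of 72 h, 4 were lower at 72 h, and without replicate 1 or 2 of 36 h, 2 were lower at 18 h. PDSS1, which builds the side chain of coenzyme Q, read 5.81 and 6.00 at 72 h, against 9.22, 9.33, 9.36 and 9.74 at 0 h, a change of -3.51 ± 0.17 (SE; adjusted p = 1.15e-09). COQ2, which attaches that chain, changed by -2.41 ± 0.18 at 72 h (adjusted p = 4.83e-08). PGGT1B, a subunit of a protein prenyltransferase, changed by -0.72 at 96 h (adjusted p = 0.00194), and RABGGTB, of the enzyme that prenylates Rab proteins, by -0.94 at 36 h (4.58e-05) and -0.25 at 96 h (0.195).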

How the data were processed

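RNA of 16 samples from 6 times was measured on arrays with 22277 probe sets, 62 of them controls. The authors deposited log2 expression values from GCRMA, as the submitters' processing notes say. For its version, its settings and joint normalisation of the arrays, the sources used here give no statement. GCRMA compresses dim values, the number of arrays limits precision, and no detection calls were used. Of the probe sets, 1043 carried several gene symbols and 2164 none, and these were not named. Entrez identifiers of 19058 matched RefSeq and 0 symbols changed. No columns of other samples (0) were present.

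Each gene's brightest probe set entered a limma 3.58.1 model in R 4.3.3 (with the package data.table, version 1.17.8) with 1 mean per time over all arrays, 10 residual degrees of freedom and eBayes with a trend, checked on simulated data. Comparisons numbered 9. Tests were two-sided. Members and the 6 other gene lists were chosen with earlier results of these data known. Named genes were all members and, per list, the 3 with the smallest adjusted p at 96 h and the 2 at 18 h. SCAP, and MSMO1 and DHCR7 among neighbours, were named after their values were seen or by likeness. Labels do not say that replicates are separate cultures, so a p-value reflects sample-to-sample spread that may be technical.

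Numbers 1 to 3 were taken as pairing samples of 0, 18 and 36 h. Same-numbered deviations from the time means correlated there at 0.21 to 0.63 in every pair. Those with 53, 72 and 96 h did not correlate so in every pair. Unlike numbers 2 and 3 correlated to a similar degree. Replicate 2 of 18 h correlated at 0.545 with replicate 2 of 0 h and at 0.55 with replicate 3 of 0 h. The values thus set replicate 1 apart and do not show how replicates 2 and 3 pair. Alternatives covered filters, probe-set summaries, centring, a second normalisation, array weights, blocks, an ACTB covariate and left-out arrays, and leaving out 2 arrays together was chosen after seeing the data. Some listed genes had no probe set under the rule and were not analysed here. Promoter windows came from RefSeq. Figures used Python 3.11.15, pandas 2.3.3 and matplotlib 3.10.9.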

Additional observations from a re-analysis of the deposited data

Results flagged for a closer look

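Of the 17 member probe sets, 2 had one 0 h array set apart from the others by a gap large for the group's range. LSS probe set 202245_at read 8.475 on 0 h replicate 4, and the next lowest 0 h array read 9.05. EBP probe set 213789_at read 7.2284 on the same array, and the next lowest read 7.61. Groups of 4 are flagged by chance at times, and both values came from an array on which 13 of the 16 tested member probe sets lay below the mean of the other 0 h arrays. Without that array, the LSS change at 18 h was 0.73 (adjusted p = 0.000902), against 0.89 with it.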

How the results depend on the processing

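Members called at each of the 9 comparisons were recounted under 15 alternatives and with each array left out. Most counts moved by no more than 1.5 times. The count at 36 h, 3 in the report, was 6 with array weights and 6 with both 36 h replicate 1 and 0 h replicate 4 left out. At 18 h it was 1 with a replicate block over 0, 18 and 36 h and 1 with replicates 2 and 3 averaged, against 3. The block over all 16 arrays lost HMGCS1 at 18 and 53 h (adjusted p = 0.0972 and 0.0834) and gave 1 call at 72 h against 53 h, LSS (-0.49, adjusted p = 0.0399); with the block over 0, 18 and 36 h, HMGCS1 and INSIG1 at 18 h and the F test of INSIG1 (adjusted p = 0.0691, against 0.00527) were lost, and the paired fits changed no other member call. At 53 h against 36 h, 1 was called with mean of probe sets, centring, array weights, the ACTB covariate or both arrays left out, against 0. At 72 h against 53 h, 1 was called with array weights or with only the groups compared, and 2 with both arrays left out, against 0. At 96 h against 72 h, centring left 1 of 2, EBP, and FDPS was 0.33 (adjusted p = 0.0601). With the ACTB covariate, 4 members were called at 36 h against 18 h, against 2, and HMGCS1 at 53 h was lost (0.55, adjusted p = 0.111). With no filter HMGCS1 at 18 h had an adjusted p of 0.0598. Leaving out single arrays gave 2 to 4 members at 18 h, 3 to 6 at 36 h, 4 to 6 at 53 h, 2 to 3 at 72 h and at 96 h, 2 to 3 at 36 h against 18 h, 0 to 1 at 53 h against 36 h, 0 to 1 at 72 h against 53 h, and 1 to 2 at 96 h against 72 h. Neighbouring times that differed in the order of levels, 2 of 35, were 4 with the mean of probe sets, 5 with array weights, 8 with both arrays left out, and 2 to 7 with single arrays left out. Other reversals were ACACA at 96 h with the mean of probe sets (-0.59, adjusted p = 0.00146) and ELOVL6 at 36 h with the ACTB covariate (-0.50, adjusted p = 0.0484). Genes called among all tested ranged from 1269 to 3546 at 18 h (2150 in the report), 2855 to 6459 at 36 h (4772), 2933 to 5628 at 53 h (4845), 3020 to 6575 at 72 h (5003), 2694 to 5719 at 96 h (4440), 1896 to 4832 at 36 h against 18 h (3272), 321 to 1711 at 53 h against 36 h (920), 468 to 1797 at 72 h against 53 h (1215) and 1124 to 2372 at 96 h against 72 h (1988). Dropping probe sets whose names end in _x_at or _s_at leaves fewer genes to test, and no filter adds genes. The cause of the other changes was not tested.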
